A study of Mus musculus with 20 samples.

Results

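Accessible chromatin was described around 10 genes whose products hold back muscle differentiation: Id1, Id2, Id3, Id4, Hes1, Hey1, Heyl, Twist1, Twist2 and Msc. The data were ATAC-seq peak lists of 20 libraries of the mouse myoblast line C2C12, whose cells fuse into muscle fibres in culture. ATAC-seq cuts open DNA with a transposase, so that a peak marks accessible chromatin. Peaks that shared at least 1 bp were merged over all lists into 101352 regions, and a region within 15 kb of the GRCm38 span of a gene was taken as an element of that gene. This rule gave 70 elements, which held 609 of the 787806 peaks. A library called an element when its list had a peak there. Cells were wild type (WT) or Setd2 knockout (KO, lacking the main enzyme for trimethylation of histone H3 lysine 36), and were taken at day 0 (D0), day 1 (D1) or day 5 (D5). The later days had cells in a control (CTL) and in a methionine-restricted (MR) medium. The 10 groups have 2 libraries each, which were replicates 1 and 2 in WT and lines 1 and 2 in KO. The same KO lines recurred in every condition, and the labels do not say whether WT replicates were separate cultures, so p-values measure only the spread between these libraries.

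HLH proteins work in pairs. MyoD and its relatives activate muscle genes as heterodimers with the E proteins (Tcf3, Tcf4, Tcf12) on E-boxes. Id proteins have the helix-loop-helix that pairs but no basic region that binds DNA, and they take E proteins out of use. Hes1, Hey1 and Heyl are basic HLH repressors and well-known targets of Notch signalling, which keeps muscle precursors from differentiating. Twist1, Twist2 and Msc (musculin, also called MyoR) are basic HLH factors that bind DNA and counter MyoD. Id genes are well-known targets of BMP signalling through Smad proteins.

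Because 4 of the genes had an element over their start, the 250 bases before the start are shown for the genes found in the RefSeq promoter table of GRCm38.p6, which held 5 of the 10. Id2, Id3, Id4 and Twist2 had an element over these bases, while Twist1 had none. All are written 5′ to 3′ on the strand of the gene, with E-boxes (CANNTG) in capitals. Id2 lies on the minus strand (chr12:25096093-25096342).
Id2: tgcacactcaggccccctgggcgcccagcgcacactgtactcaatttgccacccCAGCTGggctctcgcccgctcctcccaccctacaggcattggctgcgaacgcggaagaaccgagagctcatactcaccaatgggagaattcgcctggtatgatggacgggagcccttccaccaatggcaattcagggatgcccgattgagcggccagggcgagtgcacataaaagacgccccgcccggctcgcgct
Id3 lies on the plus strand (chr4:136143572-136143821).
Id3: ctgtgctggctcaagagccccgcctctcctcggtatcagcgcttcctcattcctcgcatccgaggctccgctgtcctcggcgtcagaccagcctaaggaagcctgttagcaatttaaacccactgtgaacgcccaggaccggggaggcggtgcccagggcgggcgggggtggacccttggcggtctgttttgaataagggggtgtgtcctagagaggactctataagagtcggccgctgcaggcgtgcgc
Id4 lies on the plus strand (chr13:48260866-48261115).
Id4: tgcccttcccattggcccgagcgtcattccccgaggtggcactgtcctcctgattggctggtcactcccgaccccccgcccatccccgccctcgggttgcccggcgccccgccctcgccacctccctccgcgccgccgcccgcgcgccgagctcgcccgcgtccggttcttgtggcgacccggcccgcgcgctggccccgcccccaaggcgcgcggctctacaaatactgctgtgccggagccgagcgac
Twist2 lies on the plus strand (chr1:91801211-91801460).
Twist2: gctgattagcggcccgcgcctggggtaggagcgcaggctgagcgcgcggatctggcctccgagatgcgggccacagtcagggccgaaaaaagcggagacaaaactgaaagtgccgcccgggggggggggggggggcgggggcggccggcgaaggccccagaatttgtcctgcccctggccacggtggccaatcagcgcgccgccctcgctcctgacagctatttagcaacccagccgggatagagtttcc
Twist1 lies on the plus strand (chr12:33957421-33957670).
Twist1: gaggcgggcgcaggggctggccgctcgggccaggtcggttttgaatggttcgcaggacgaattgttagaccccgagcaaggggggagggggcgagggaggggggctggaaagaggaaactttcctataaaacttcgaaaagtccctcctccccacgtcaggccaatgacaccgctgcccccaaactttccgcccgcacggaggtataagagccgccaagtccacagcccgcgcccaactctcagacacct

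The start element covered all 250 of these bases in Id2, Id4 and Twist2, and 243 of them in Id3. The windows were GC-rich, with 62.8% G and C in Id2 and Id3, 75.6% in Id4, 68.8% in Twist2 and 62.4% in Twist1, beside a median of 52.4% over 32851 promoter windows of this length. The Id2 window held 1 E-box, CAGCTG, 196 bases before the start. The windows of Id3, Id4, Twist1 and Twist2 held none. CANNTG was present in 66.2% of all windows and CAGCTG, which it includes, in 4271 of the 32851. Both strands were searched for this and for 7 other motifs. The N-box CACNAG, a site of Hes proteins, was in the Id4 window and in 36.7% of all windows. The Rbpj letters TGGGAA were in the Id4 window and in 21.6% of all. GGCGCC, a GC-rich SMAD site, was in the Id2 and Id4 windows and in 9.59% of all. GTCTAGAC (0.167% of windows), TGACGTCA (1.55%), TGANTCA (6.75%) and TGTGGT (14.05%) were in none of the 5.

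Every gene except Twist1 had at least 1 element. Id3 and Twist2 had 13 each, Id1 had 10, Hes1 and Heyl 9 each, Id2 8, Hey1 and Msc 3 each, and Id4 2. The median over the 10 genes was 8.5, beside 4 over 21631 protein-coding genes. Of the 70 elements, 27 overlapped the gene and 43 lay outside it. The lists held 20847 to 69881 peaks in 18 libraries, here called the usual ones, but only 644 and 1881 in KO line 1 at D5, where 0 and 2 elements were called. Outside these 2 libraries, 13 elements were called in all 18 others, beside 11% of all regions. Another 13 were called in a single library, beside 20.4% of all regions, and 9 of these belonged to KO line 1 at D0, one of the longest lists (63530 peaks). The number of elements called ran with list length, from 16 in the KO line 2 library at D5 MR (22062 peaks) to 50 in KO line 1 at D0. Pooled over D0 and D1, list lengths overlapped between genotypes, at 43058 to 69881 peaks in WT and 30629 to 63530 in KO. Within D1 MR they did not overlap, at 69881 and 57676 peaks in WT and 48460 and 35201 in KO. At D0 KO line 2 had the shortest list (30629 peaks) and KO line 1 the longest. The part of list length in differences between genotypes was not tested.

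**Figure D1:**
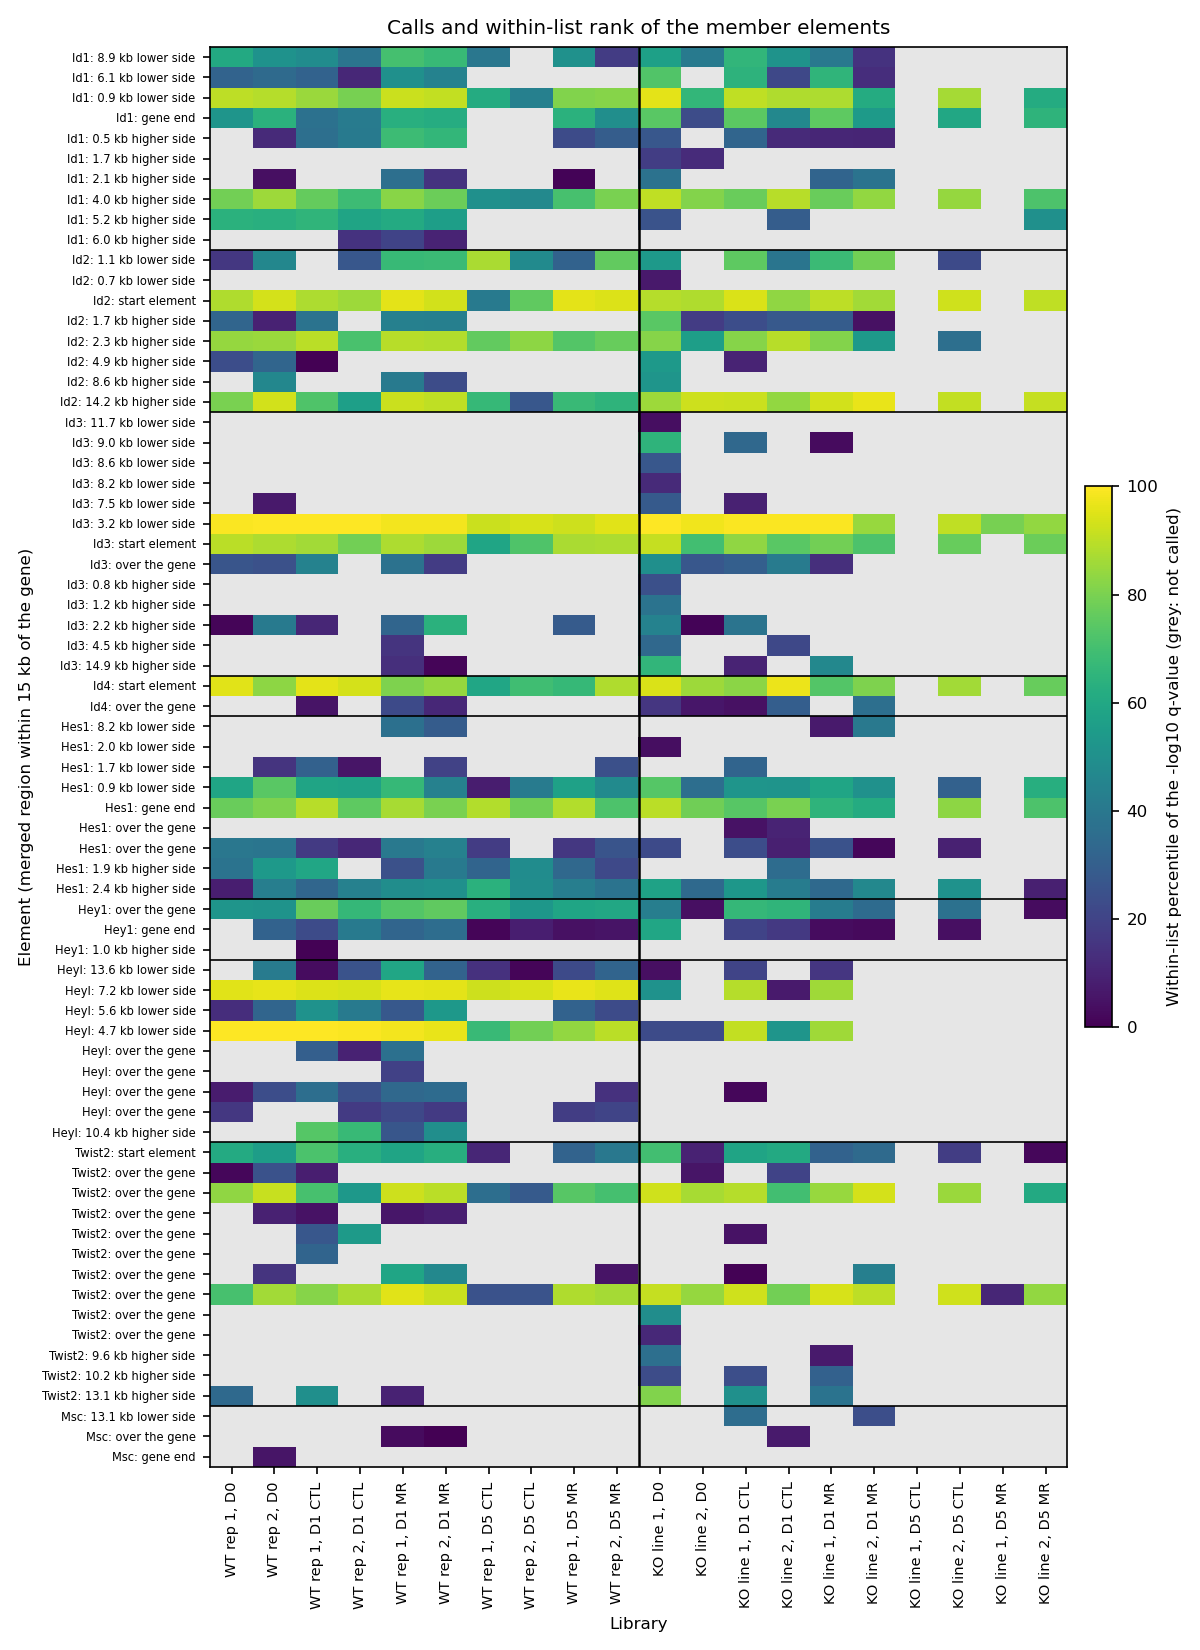
Heat map of the 70 elements (rows, by gene and distance from the gene in kb) in the 20 libraries (columns, WT left and KO right of the line). Colour gives the within-list percentile of the −log10 q-value (0 to 100) and grey means not called. The start elements of Id2, Id3 and Id4 and the element at the lower-coordinate end of Hes1 are coloured in all columns but the 2 of KO line 1 at D5, and the Heyl rows are mostly grey on the KO side.

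**Figure D2:**
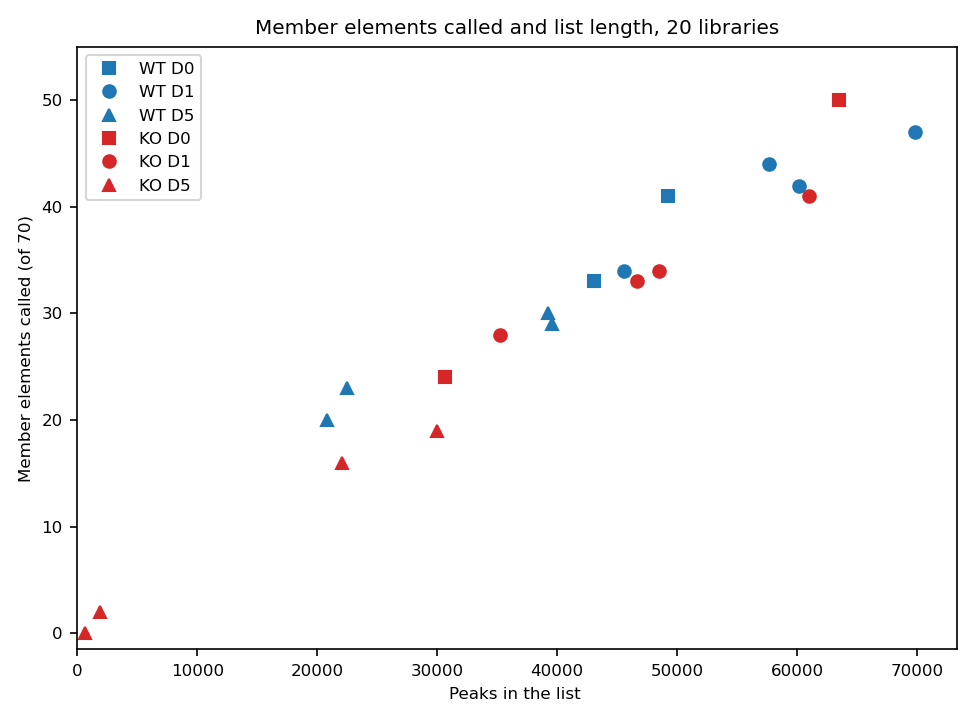
Elements called (of 70, y axis) against peaks in the list (x axis) for each of the 20 libraries, with colour for genotype and symbol for day. Longer lists hold more elements, and the 2 points near the origin are KO line 1 at D5.

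The sample identity was checked at gene ends (within 1 kb). All 18 usual libraries called the ends of 4 of 6 myoblast genes. Of the pathway genes described below, they did so for 1 of 7 E proteins and muscle bHLH factors and 5 of 13 Notch genes. The same held for 6 of 12 BMP and Smad genes and 6 of 12 other repressors. The share over all protein-coding genes was not counted, so these calls alone do not show myoblast identity. The ends of 3 of 3 leukocyte genes, of 3 of 3 endothelial genes, of the epithelial genes Cdh1 and Epcam, of the adipocyte gene Adipoq and of the neuronal gene Rbfox3 were called in no library. Other genes of the same lists had called ends, namely the adipocyte gene Pparg and the neuronal gene Tubb3 in 17 of the 18 usual libraries each, the epithelial gene Krt8 in 10, the neuronal gene Snap25 in 3 and the adipocyte gene Plin1 in 1. Their part in the results was not tested.

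Strength is given as a within-list percentile, the share of the other peaks of the same list with a lower −log10 q-value. It describes a place in 1 list, and places in lists of different length show no change. The strongest Id element lay 3.2 kb upstream of Id3 (chromosome 4, 136140359 to 136140611). Its percentile was 99.5 and 99.7 in WT at D0, 99.8 and 99.7 in WT at D1 CTL, and 98.1 and 98.3 in WT at D1 MR. In KO lines 1 and 2 it was 99.7 and 98.0 at D0, 99.2 and 99.3 at D1 CTL, and 99.4 and 84.5 at D1 MR. At D5 it ranged from 79.4 to 95.4 in the 7 lists that held it, among them the list of 1881 peaks. KO line 2 at D1 MR was thus the lowest of the 12 libraries of D0 and D1. The Id3 start element was called in the same 18 usual libraries, with percentiles of 58.8 to 91.4. Beyond these, Id3 had 5 elements seen in 1 library each, all of them KO line 1 at D0, where all 13 Id3 elements were called.

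Id2 had elements in all 18 libraries at its start and 14.2 kb upstream (chromosome 12, 25110336 to 25110599). The start element had percentiles of 83.4 to 95.96 in the 12 libraries of D0 and D1. At D5 it stood at 40.7 and 75.7 in WT in CTL, 95.99 and 94.8 in WT in MR, and 92.7 and 90.5 in KO line 2 in CTL and MR. The lowest of the 18 was thus WT at D5 CTL, replicate 1. The 14.2 kb element stood at 67.0 and 27.3 in WT at D5 CTL, 67.9 and 65.0 in WT at D5 MR, and 91.0 and 91.2 in KO line 2 in CTL and MR. Here the KO line 2 values at D5 lay above all 4 WT values.

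Id1 had 2 elements in all 18 libraries, one 0.9 kb from its lower-coordinate end and one 4.0 kb beyond its higher-coordinate end. The strand of Id1, Hes1, Hey1, Heyl and Msc was not given in the tables used here, so sides are named by coordinate for these. The element over the Id1 start or end (chromosome 2, 152735859 to 152736545) was called in 16 libraries and was absent from both WT libraries at D5 CTL. In WT at D5 MR it was called at percentiles of 63.9 and 49.6, and in KO line 2 at D5 at 60.1 in CTL and 65.1 in MR. The WT D5 lists held 22465 and 20847 peaks in CTL and 39538 and 39263 in MR. Among the 20000 strongest peaks of each list, the Id1 element was outside in both WT D5 CTL libraries and at positions 14260 and 19797 in WT D5 MR.

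Id4, the least populated Id locus, had a start element in all 18 libraries (chromosome 13, 48260741 to 48261158), at percentiles of 59.3 to 96.9. Its other element (48261555 to 48262114), over the gene body, was weak. At D0 no WT library and both KO libraries had it. It was called in 1 and 2 of 2 WT libraries at D1 CTL and MR, in 2 and 1 of 2 KO libraries there, and in no library of D5. Its percentile was at most 36.5.

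Hes1, the Notch target that cycles in muscle precursors, had 3 elements in all 18 libraries. These lay at its lower-coordinate end (chromosome 16, 30065121 to 30065437), 0.9 kb below it and 2.4 kb above its higher-coordinate end. Percentiles of the end element were 61.7 to 89.6. Hey1 had 1 element in all 18, over the gene (chromosome 3, 8664592 to 8664848), and an element at one gene end in 15. This Hey1 end element was missing from WT replicate 1 at D0, KO line 2 at D0 and KO line 2 at D5 MR. It overlaps the neighbouring gene LOC115489673 and cannot be assigned to Hey1 alone.

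**Figure D3:**
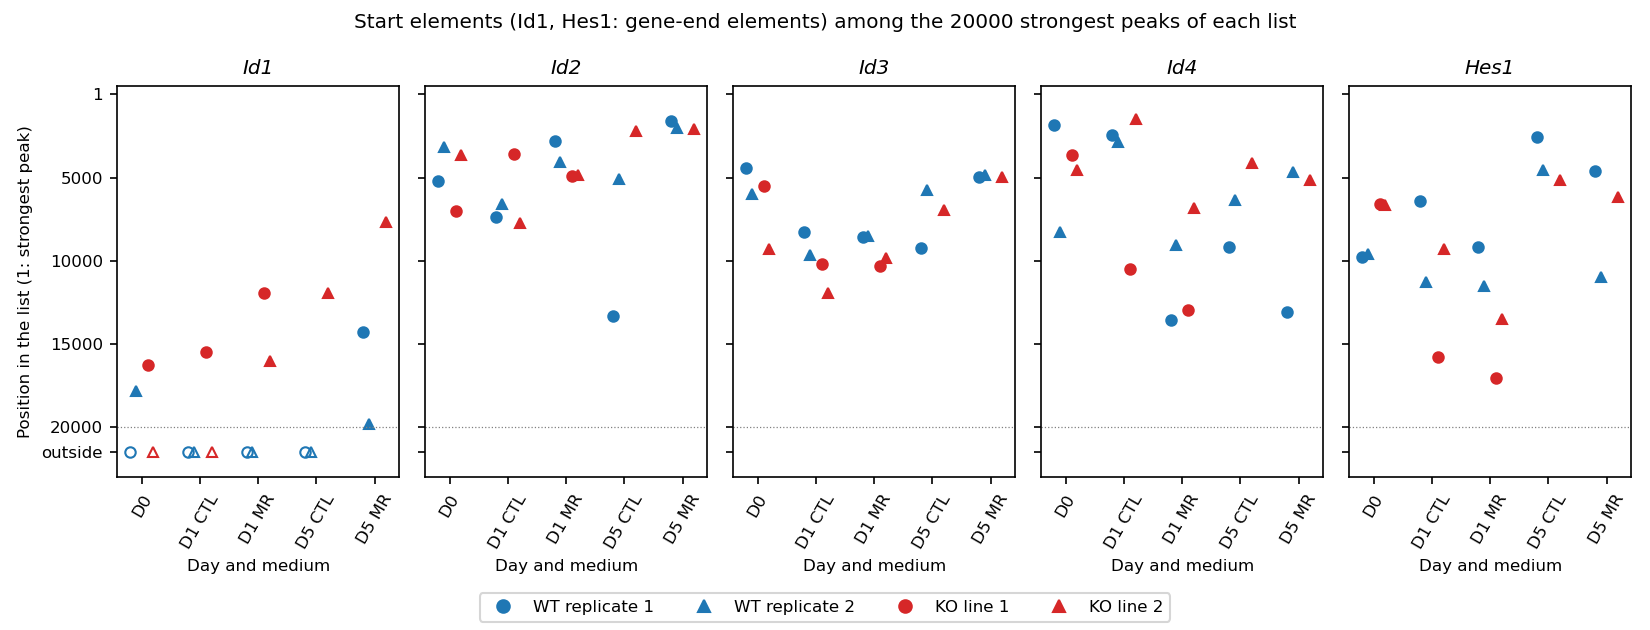
Position of the start element of Id2, Id3 and Id4 and of the gene-end element of Id1 and Hes1 among the 20000 strongest peaks of each list (y axis, 1 is the strongest peak and open symbols lie outside) by day and medium (x axis), for WT replicates and KO lines. KO line 1 at D5 is not drawn, because its lists are shorter than 20000 peaks. Id2, Id3, Id4 and Hes1 stay within the 20000 in all 18 libraries, while Id1 is outside in 9.

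Of the 10 genes, Heyl had the largest mean difference in calls between WT and KO at D0 and D1. Elements called within 15 kb of Heyl numbered 5 and 5 in WT at D0, 7 and 8 at D1 CTL, and 9 and 7 at D1 MR. In KO lines 1 and 2 they numbered 3 and 1 at D0, 4 and 2 at D1 CTL, and 3 and 0 at D1 MR. The genotypes did not overlap over these 12 libraries. The mean difference, taken within day and medium, was −4.67 elements (KO minus WT, exact stratified permutation p = 0.00926, the smallest this design allows). Adjusted over 8304 testable protein-coding genes the p was 0.114, so the difference did not pass, and 0% of genes did. By the same exact test, 1978 of these 8304 genes had an unadjusted p under 0.05, as did 1 of 5 testable member loci. How many other genes showed no overlap between genotypes was not counted. At D5 Heyl had 3 and 3 elements in WT in CTL, 5 and 6 in WT in MR, and 0 in all 4 KO libraries. The KO line 2 list at D5 CTL, with 29963 peaks, was longer than both WT D5 CTL lists. At D5 MR the KO line 2 list held 22062 peaks, fewer than the 39538 and 39263 in WT. The KO line 1 lists at D5 held only 644 and 1881 peaks. The part of list length in these counts was not tested. With all 20 libraries, the 2 short KO lists included, the difference was −4.5 and passed (exact stratified permutation, adjusted p = 0.0184), beside 16.3% of 13453 genes under this setting.

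The best supported Heyl element by this test lay 5.6 kb below its lower-coordinate end (chromosome 4, 123227709 to 123227956), 2370 bp from Nt5c1a. Its percentile in WT was 13.1 and 32.7 at D0, 51.2 and 40.9 at D1 CTL, and 27.4 and 53.3 at D1 MR. It was called in none of the 6 KO libraries of these days. This was the only element near the 10 genes that passed the genotype test on calls (exact stratified permutation p = 0.00926, Benjamini-Hochberg adjusted p = 0.0494). Over all 7182 testable regions 18.8% passed, 13.8% lower and 4.98% higher in KO. Of 99411 regions called at D0 or D1, 0.995% were in all 6 WT and no KO library and 0.36% showed the reverse, so 1 of 70 elements is near the share of all regions. Without WT replicate 1 or 2 the element had the smallest p that 27 arrangements allow (0.037, exact permutation). Its adjusted p was 0.167 and 0.157. No region passed in either setting, so these settings cannot judge the element. Without KO line 1 or 2 it passed (adjusted p = 0.0491 and 0.0493, exact permutation), beside 75.5% and 75.2% of regions. The call rested on weak peaks, with −log10 q-values of 2.8 to 8.7. The element was outside the 20000 strongest peaks of every list. A missing call means only that no peak reached the threshold of that list. At D5 it was called in 2 of 2 WT libraries in MR and 0 of 2 in CTL.

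Its neighbours were far stronger. The element 4.7 kb below Heyl (chromosome 4, 123228293 to 123228845) stood at percentiles of 99.7 and 99.8 in WT at D0, 99.7 and 99.5 at D1 CTL, and 98.4 and 96.9 at D1 MR. In KO lines 1 and 2 it stood at 23.0 and 22.8 at D0 and at 90.9 and 52.0 at D1 CTL. At D1 in MR it stood at 85.8 in line 1 and was not called in line 2. Among the 20000 strongest peaks its positions in WT were 148 and 93 at D0, 195 and 235 at D1 CTL, and 1110 and 1809 at D1 MR. In KO it was at 5551 and 6902 in line 1 at D1 and outside in the other 4 libraries. All 6 WT positions were thus stronger than all 6 KO positions. How many of all regions showed such an order was not counted.

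The element 7.2 kb below Heyl (123225929 to 123226367), 590 bp from Nt5c1a, showed the same order. Its WT positions were 1879 and 1909 at D0, 3266 and 2708 at D1 CTL, and 2489 and 2288 at D1 MR. Line 1 had it at 6713 and 6835 at D1, and the other 4 KO libraries had it outside. With the positions scored from 20000 for the strongest peak to 0 for outside, an analysis chosen after seeing the data, the mean difference in score (KO minus WT) was −14811 at the 4.7 kb element and −13169 at the 7.2 kb element. Each had an exact stratified permutation p of 0.00926 and an adjusted p of 0.0603, and none of 19380 testable regions passed. By this exact test 6084 of these regions had an unadjusted p under 0.05, as did 4 of 15 testable member elements. One other element was lower in KO on this measure at an unadjusted p under 0.05, the Id3 start element (−1940.5, exact permutation p = 0.0185, adjusted 0.0968). Both Heyl elements lie nearer to Nt5c1a than to Heyl, as does the 5.6 kb element, and belong to Heyl here only by the 15 kb rule. A further element in the Heyl count, 13.6 kb below the gene, overlaps Nt5c1a. The locus difference for Heyl thus includes elements that may belong to Nt5c1a. At D5 the 4.7 and 7.2 kb elements were called in 4 of 4 WT libraries and in none of the KO libraries.

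Over the Heyl gene itself the elements were weaker. The one from 123239277 to 123240004 had calls in 6 of 6 WT libraries and 1 of 6 KO libraries at D0 and D1 (exact stratified permutation, adjusted p = 0.0537), at percentiles of 7.5 to 36.1 in WT and 1.9 in KO. The element 10.4 kb above the higher-coordinate end was called in 4 of 4 WT libraries of D1, at 73.7 and 67.3 in CTL and 26.7 and 49.2 in MR, and in no other library. Within 1 kb of either end of Heyl there was no element.

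**Figure D4:**
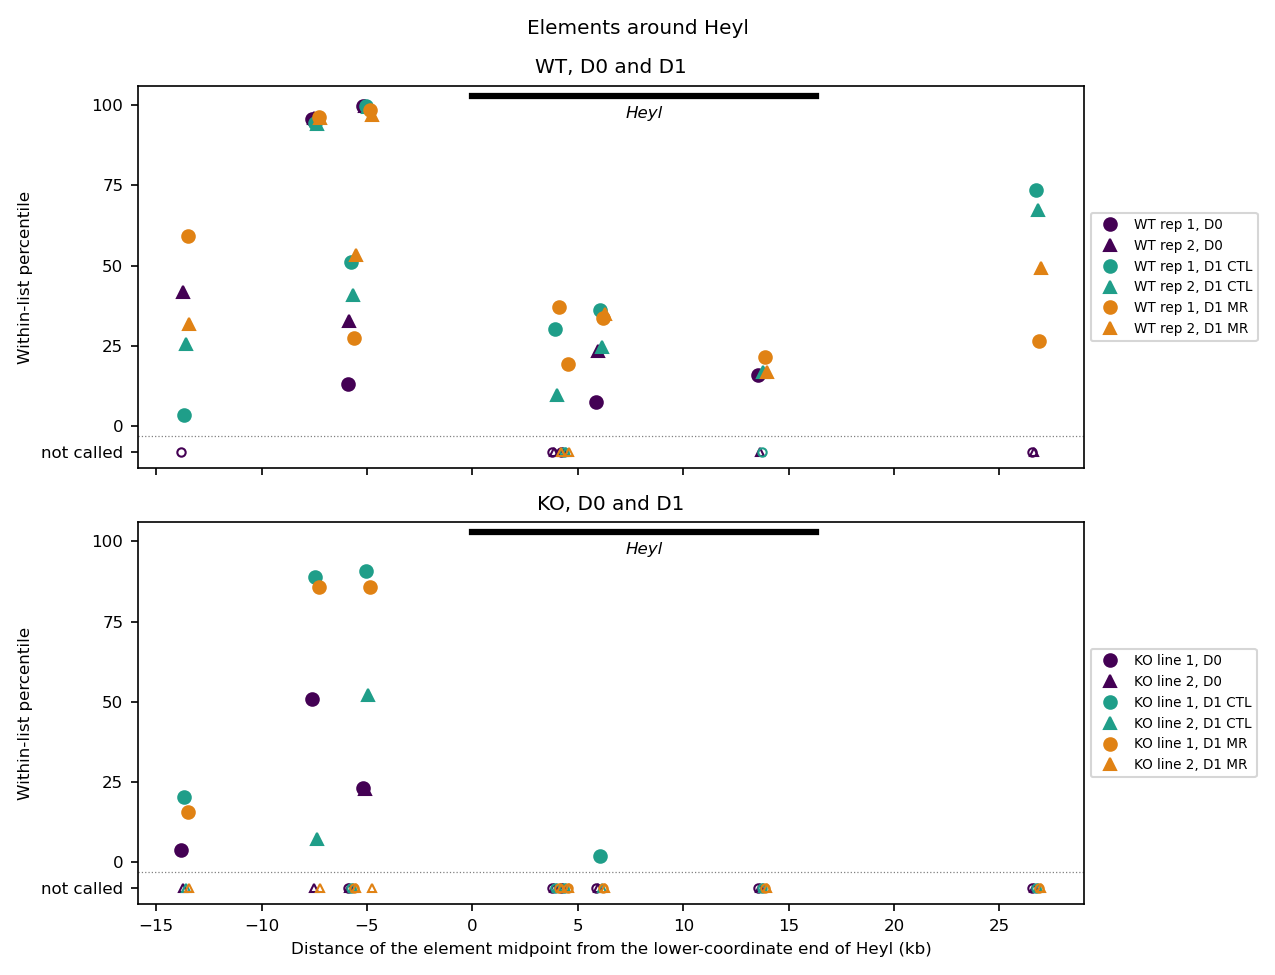
Within-list percentile (y axis) of the 9 Heyl elements by distance of their midpoint from the lower-coordinate end of Heyl (x axis, kb), for the 6 WT libraries (top) and 6 KO libraries (bottom) of D0 and D1; open symbols are not called and the bar is the gene. The elements 7.2 and 4.7 kb below the gene are near the top of every WT list and lower or absent in KO.

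Genes of muscle differentiation also had fewer calls in KO in these 12 libraries. The number of regions called around Myog, Ckm, Mymk, Mymx and Acta1 together was 15 to 37 in WT (median 32) and 4 to 17 in KO (median 12.5). Over 4 of these 5 genes the unadjusted exact permutation p was under 0.05, beside 1978 of 8304 testable genes, and none passed after adjustment. Around Myog alone the count was 2 and 2 in WT at D0, 8 to 9 at D1, and 0 in 5 of 6 KO libraries and 2 in the other one. The gene end of Myog was called in 8 WT libraries and in 0 KO libraries. Around 6 myoblast genes the sum was 41 to 56 in WT and 25 to 45 in KO. Their part in the Heyl result was not tested.

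For the other members the genotypes overlapped. Mean locus differences between KO and WT at D0 and D1 were −1 for Id1, −0.17 for Id2, 1.5 for Id3, 0.33 for Id4, −0.83 for Hes1, −0.17 for Hey1, −0.17 for Twist2 and 0 for Msc. Over the 10 genes the median was −0.17, the same as over all protein-coding genes. Comparing the groups of 2 libraries, without a test, 3 of 59 elements were lost at D0 (called in both WT and neither KO library; 5.36% of all regions) and 2 gained (2.51%). At D1 in CTL 3 of 54 were lost (6.45%) and 1 gained (5.41%). At D1 in MR 11 of 52 were lost (17.7%) and 0 gained (1.61%), in lists of 69881 and 57676 peaks for WT and 48460 and 35201 for KO. The 11 lay around Id1, Id2, Id3, Hes1, Heyl, Twist2 and Msc, 4 of them at Heyl. The Hes1 element 1.9 kb above its higher-coordinate end was called in 9 of 10 WT libraries and in 1 of 10 KO libraries. It did not pass in the 12 libraries (exact stratified permutation, adjusted p = 0.220) and passed with all 20 (0.0480), where the short KO lists count as no call and 18.8% of 18700 regions passed.

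No element and no locus passed the test between media. The exact test covered 12 libraries (WT at D1 and D5, KO at D1). Of the 70 elements 2 could be tested and 0 passed, of 1747 regions 0% passed, and 288 of these had an unadjusted p under 0.05. The element with such a p lay 2.1 kb above Id1 (chromosome 2, 152739542 to 152739957). It was called in MR in 2 of 2 WT libraries and 2 of 2 KO libraries at D1 and in 1 of 2 WT libraries at D5, and in 0 of 6 CTL libraries (exact permutation p = 0.0278, adjusted 0.168). Its percentiles where called in MR were 1.1 to 38.1, and it was also called in WT replicate 2 and KO line 1 at D0. The Id1 locus had 9 and 9 elements in WT at D1 MR against 7 and 8 in CTL, 6 and 5 against 3 and 2 at D5, and 7 and 7 against 6 and 7 in KO at D1. The mean difference was 1.67 elements (exact permutation p = 0.0278, adjusted 0.809), and 0% of 6500 genes passed.

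In WT at D1, 6 of 53 elements were called in both MR and neither CTL library (10.2% of all regions), around Id1, Id2, Id3, Hes1, Twist2 and Msc, and 1 at Twist2 was lost (1.75%). In KO at D1, 2 of 49 were gained (0.369%), at Id1 and Hes1, and 1 at Hes1 was lost (4%). The Id1 element above and the Hes1 element 8.2 kb below the gene were gained in both genotypes. In WT at D5, 4 of 32 were gained (27.9%), 2 at Id1 and 2 at Heyl, and none was lost (0.494%). The MR lists were longer in WT at both days on average and shorter in KO at D1, and the part of list length in these counts was not tested.

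Positions among the 20000 strongest peaks, which make lists of different length equal in length, were also compared between media. One Twist2 element lies over the gene, 22015 bp from the gene start (chromosome 1, 91823476 to 91823880). In WT at D1 it was at positions 10939 and 5816 in CTL and at 3134 and 4588 in MR. At D5 in WT it was at 16830 and 15490 in CTL and at 4749 and 5296 in MR, and in KO at D1 it was at 4340 and 10018 in CTL and 3005 and 3450 in MR. All 6 MR positions were stronger than 5 of the 6 CTL positions, the exception being KO line 1 at 4340. The mean shift in MR was 6535 places towards the strong end (exact stratified permutation p = 0.00926, adjusted 0.122). The other Twist2 element, 15161 bp from the start, shifted by 7460.5 places (p = 0.0185 by the same exact permutation test, adjusted 0.153). KO line 1 at D1 did not follow this mean, with 6796 in CTL and 7516 in MR. The Id2 start element shifted by 3897 places (exact permutation p = 0.0278, adjusted 0.153). Here too KO line 1 at D1 went against the mean, with 3570 in CTL and 4887 in MR. The element 3.2 kb upstream of Id3 went the other way in the mean, with −1478 places (exact permutation p = 0.0463, adjusted 0.202). In KO at D1 it stood at 464 and 339 in CTL and at 275 and 5465 in MR, so line 1 did not follow the mean. None of 16916 regions passed on this measure. An unadjusted exact permutation p under 0.05 was found for 3872 of these regions and for 4 of 16 testable member elements.

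At D5 fewer elements were called than at D1 around most of the genes. Id1 had 7, 8, 9 and 9 elements in the WT libraries of D1 and 3, 2, 6 and 5 in those of D5, and KO line 2 had 7 and 7 against 3 and 4. The mean difference was −3.88 (exact stratified permutation p = 0.0139, the smallest this design allows, adjusted 0.0332). Heyl fell by 2.25 elements (exact permutation, adjusted p = 0.0381) and Twist2 by 1.88 (adjusted p = 0.0332 by the same exact test). Id2 fell short of the threshold with −1.63 and Id4 with −0.88 (exact permutation, adjusted p = 0.0503 each). So 3 of 5 testable loci were lower, beside 72.8% of 7538 protein-coding genes lower and 0% higher. Single elements that passed were 6.1 kb below Id1 (called in 6 of 6 libraries of D1 and 0 of 6 of D5; adjusted p = 0.0413, exact permutation), 1.7 kb upstream of Id2 and the body element of Id4 (each −0.875, adjusted p = 0.0462, exact permutation). Thus 3 of 4 testable elements were lower, beside 90.1% of 3898 regions lower and 0.0257% higher. These shares are those of all regions and are no result about the 10 genes.

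The lists at D5 were shorter in both genotypes. When each list was cut to its 20000 strongest peaks, no element and no locus passed, and the Id1 difference turned to 0.625 (exact permutation p = 0.278). By position, 3 of 13 testable elements had an unadjusted exact permutation p under 0.05, beside 5506 of 16761 regions. All 3 had stronger places at D5, and none passed, as none of the 16761 regions did. The element at the lower-coordinate end of Hes1 shifted by 4839 places (exact permutation p = 0.0278, adjusted 0.102). Its positions in WT were 6434 and 11251 at D1 CTL and 2554 and 4557 at D5 CTL, and 9193 and 11492 at D1 MR and 4616 and 10982 at D5 MR. The Id3 start element shifted by 3724 places (exact permutation p = 0.0278, adjusted 0.102) and the element 4.0 kb above Id1 by 1534.5 (p = 0.0417, adjusted 0.127, by the same exact test). In groups of 2, without a test, 10 of 45 elements were lost from D1 to D5 in WT in CTL (32.9% of all regions) and 12 of 48 in MR (21.9%), and none was gained (0.409% and 1.69%). The start elements of Id2, Id3 and Id4 and the end elements of Hes1 and Hey1 were among those kept in all 4 WT libraries of D5.

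**Figure D5:**
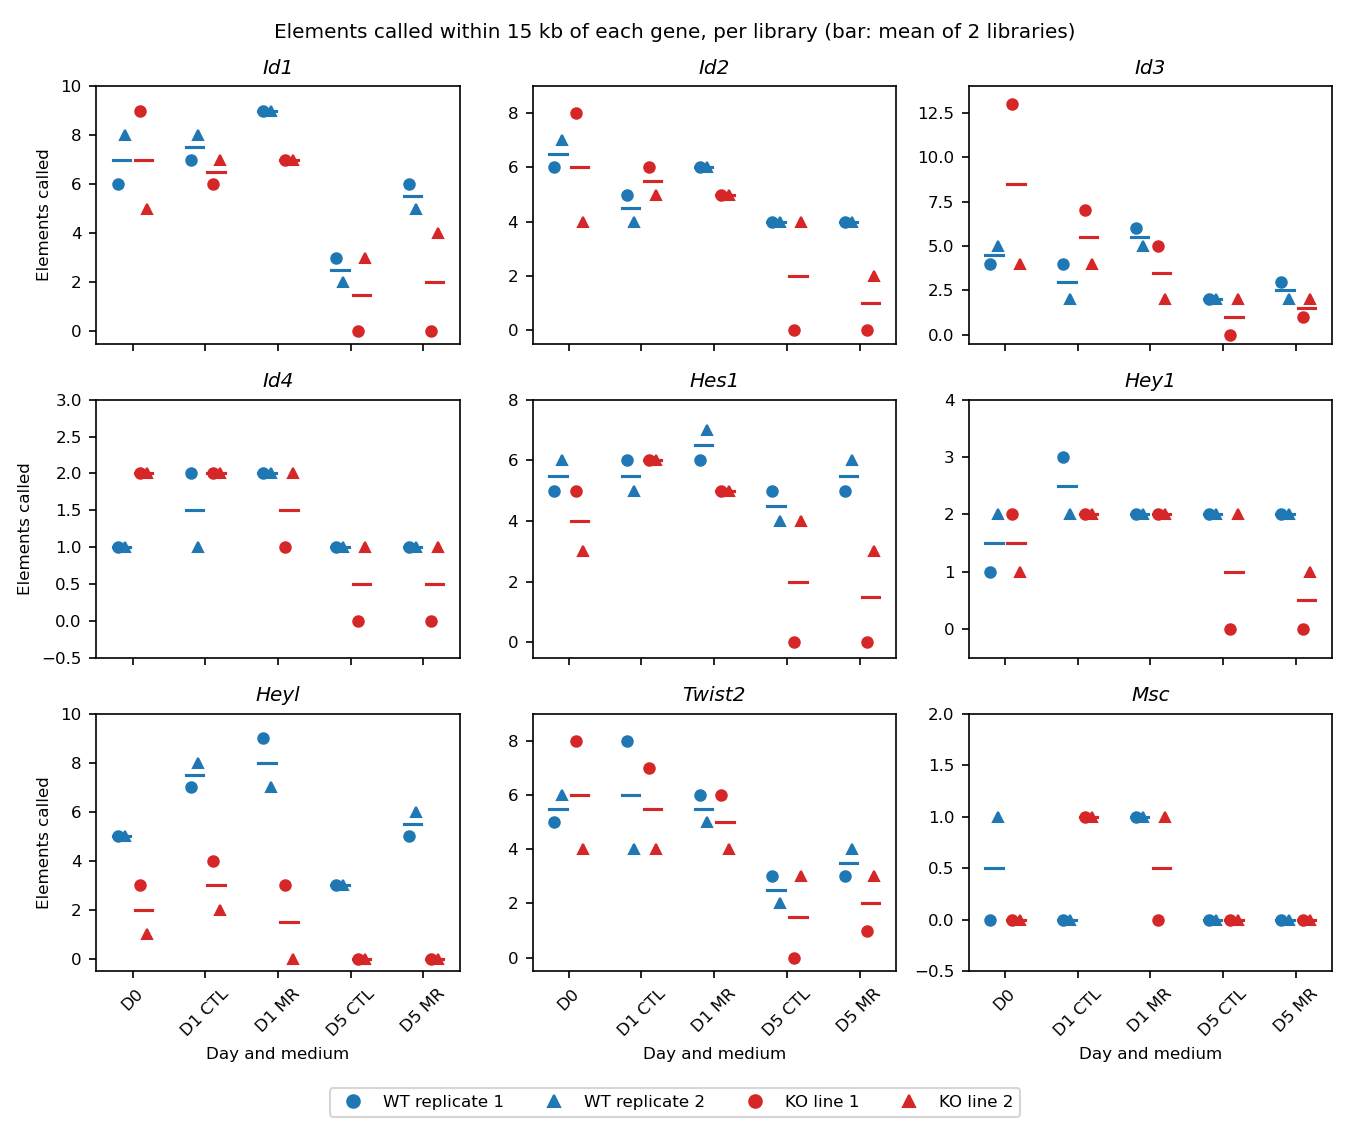
Elements called within 15 kb of each of 9 genes (y axis) by day and medium (x axis); each symbol is 1 library and each bar the mean of 2. The KO means at D5 include the short lists of line 1. Heyl is the panel in which WT and KO symbols do not overlap in any condition.

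From D0 to D1 in CTL the design allowed no p under 0.05, so the calls are described. In WT 3 of 50 elements were gained (7.44% of all regions), 2 at Heyl and 1 at Twist2, and 0 were lost (2.63%). In KO 1 of 59 was gained (1.91%), at Hes1, and 1 was lost (0.353%), at Id1. The Heyl gains were the element 10.4 kb above the gene and one over the gene body, and neither was called in any KO library.

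Among the Twist and Msc genes, Twist2 had elements in all 18 usual libraries at 15161 and 22015 bp from its start. Its start element, from 91800953 to 91802117, was called in 17, with WT replicate 2 at D5 CTL as the exception, at percentiles of 1.6 to 71.6. Msc was sparse. Its 3 elements were called in 2, 3 and 1 libraries, and none stood above the percentile of 35.9. At D5 no Msc element was called in any library.

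Twist1 had no element in any library. The nearest regions ended 528 kb below and began 80.4 kb above the gene on chromosome 12, and the gap of 611 kb between them held 1 other protein-coding gene, Ferd3l. Of 101332 gaps between neighbouring regions, 441 were at least as long. Of all protein-coding genes, 20.6% had no region within 15 kb. Why no list holds a peak there was not tested.

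Other genes of these pathways were described by the same locus counts, from lists chosen with earlier results known. Between KO and WT none of 7 E proteins and muscle bHLH factors, 13 Notch genes, 12 BMP and Smad genes and 12 other repressors passed, beside 0% of all genes. An unadjusted exact permutation p under 0.05 was found for 1 of 5, 4 of 10, 1 of 9 and 0 of 4 testable genes. This stands beside 1978 of 8304 testable protein-coding genes. The median difference was −1.33, −1.83, 0.33 and −0.08 elements in these lists, beside −0.17 over all genes. Around Notch3, a receptor, the count was 10 to 14 in WT and 3 to 8 in KO at D0 and D1, without overlap (difference −5.17, exact permutation p = 0.00926, adjusted 0.114). How many other genes showed no overlap was not counted. Around Jag2, a Notch ligand, it differed by −3.33 (exact permutation p = 0.0185, adjusted 0.139). Nrarp (−2.83) and Numb (−2.5) each had an exact permutation p of 0.0278 (adjusted 0.139). Jag1 (0.17) and Hes6 (0.5) were higher in KO. From D1 to D5, 3 of 4 testable bHLH partners were lower (the E proteins Tcf3, Tcf4 and Tcf12), 7 of 8 Notch genes, 6 of 7 BMP and Smad genes and 5 of 7 other repressors. These stand beside 72.8% of all genes. Genes alike in gene-end calls over the 18 usual libraries could be sought only where the calls vary: 3 genes matched Hey1 (Clic3, Kif21b and LOC115489673), 197 matched Twist2, and none matched Msc. The Hey1 end element overlaps LOC115489673, so the match of that gene is no separate observation.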

How the data were processed

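ATAC-seq was done on 20 C2C12 libraries. Tagmentation of lysed cells, PCR and paired-end sequencing followed, per the labels' protocols. The build is GRCm38 per the submitters' processing notes; aligner, filters and peak caller are not given in the sources used here. Each library has 1 deposited peak list. Its columns, as deposited by the authors, are a score, a fold enrichment (a ratio over background), and 2 significance values, the −log10 of a p-value and the −log10 of a q-value. These are the authors' values and were used only to describe, rank or filter peaks within a list. The lowest −log10 q-value in the deposited lists was 1.0. Read depth is unknown, so list length stands in for it.

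Peaks sharing 1 bp were merged into regions, and genes came from the GRCm38.p6 gene table. Calls, and region counts within 15 kb of every protein-coding gene, were tested by an exact two-sided permutation of libraries within strata (day and medium; genotype and day; or genotype and medium). Benjamini-Hochberg adjustment covered all regions or genes whose values allow p of 0.05 or lower, at a threshold of 0.05. Libraries were left out because the KO line 1 lists at D5 held 644 and 1881 peaks. KO against WT used D0 and D1 only, and MR against CTL left out both KO lines at D5. D5 against D1 left out KO line 1 at both days. The test was checked on simulated data. The design has few arrangements, so a region at the smallest possible p passes the adjustment only when many other regions reach that p too. Elements named were the start element (with no strand given, the one nearest either gene end), any that passed a test or separated all WT from all KO libraries of D0 and D1, and up to 3 others called most often per gene; further ones were chosen after their values were seen. Members and lists were chosen with earlier results of these data known. The KO lines pair the libraries of that genotype, being the same line in each condition (correlation of deviations between media 0.396), while WT numbers did not (−0.0066 to 0.045). Alternatives were a −log10 q-value of at least 5, the 20000 strongest peaks, 50% overlap, other windows and libraries, a replicate block, leaving out replicates and, chosen after seeing the data, positions in lists of equal length. Python 3.11.15, NumPy 2.4.6, pandas 2.3.3, SciPy 1.17.1 and matplotlib 3.10.9 were used.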

Additional observations from a re-analysis of the deposited data

How the results depend on the processing

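Elements near the 10 genes that passed KO against WT numbered 1 in the reported test, and this was 0 for peaks whose −log10 q-value reached 5, 0 in the 20000 strongest peaks, 0 with 50% overlap, 0 by position, 2 with all libraries, and 0 to 3 when a replicate was left out. Without KO line 1 the calls were 2 at Heyl. Without line 2 they were 1 at Heyl and, higher in KO, 1 each at Id3 and Twist2. Over all regions these settings called 0% (−log10 q-value, 50% overlap, position, without either WT replicate), 18.8% (all libraries), 61.6% (20000 strongest), 75.5% (without line 1) and 75.2% (without line 2). Loci passing KO against WT numbered 0, and 1 with all libraries (Heyl; 16.3% of all genes). Elements passing D5 against D1 numbered 3, and this was 1 for peaks whose −log10 q-value reached 5 (at Twist2; 94.5% of regions), 2 with 50% overlap (at Id1 and Twist2; 61.6%), 0 in the 20000 strongest, 0 by position, 6 with all libraries (66.2%) and 1 with the replicate block (91.6%). None of the 3 reported elements passed in the first 4 of these settings. Loci passing D5 against D1 numbered 3, and this was 5 for peaks whose −log10 q-value reached 5 (89.6% of genes), 0 in the 20000 strongest, 8 with all libraries (88.2%), 1 with a window of 5 kb (71.5%) and 7 with 50 kb (86.1%). The Id1 locus difference between D5 and D1 reversed to 0.625 in the 20000 strongest peaks. For the other changes the cause was not tested. MR against CTL gave 0 elements and 0 loci in every alternative run. The replicate block changed no genotype or medium count, but 84.5% of 1595 testable regions passed between genotypes under it. Between days it kept the Id1 element, and its 3 loci were Id1, Hes1 and Twist2, beside 84.5% of 4044 testable genes. Leaving out a WT replicate gave no value for MR against CTL or D5 against D1, nor did leaving out KO line 2 for D5 against D1, because too few arrangements remain for a p of 0.05; line 1 was already out there. List length limits what can be seen: a weak element absent from a short list may lie just under its threshold.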

Other observations

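One Twist2 element, 13.1 kb beyond the gene (chromosome 1, 91861091 to 91861272), was called in WT replicate 1 and KO line 1 at D0, D1 CTL and D1 MR, and in none of the other 14 libraries. Its percentiles were 34.3, 49.7 and 9.7 in WT replicate 1 and 81.1, 50.2 and 38.1 in KO line 1, in that order of conditions. Of 101352 regions 14 were called in all 6 libraries numbered 1 of these days and in none numbered 2, and 0 showed the reverse.

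Between genotypes, the Id1 element 4.0 kb above the gene shifted the opposite way to the Heyl elements in lists of equal length. It stood at 9150 and 7160 in WT and 6128 and 5735 in KO at D0, and at 14323 and 14406 against 13967 and 4982 at D1 CTL. At D1 MR it stood at 12444 and 12933 against 11134 and 5753. The mean shift was 3786 places towards the strong end in KO (exact stratified permutation p = 0.00926, adjusted 0.0603), and none of 19380 regions passed. By the same exact test 6084 of these regions had an unadjusted p under 0.05.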
